A study of Mus musculus with 11 samples.

Results

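The ligands of the chemokine receptor CCR2 and the receptor itself were followed across the skin of 11 mice after bone marrow transplant. The genes were given by name: Ccl2 and Ccl12, with Ccl7, Ccl8 and Ccr2, all 5 of which were among the 754 genes measured. Recipients were adult female mice, and all had received 850 cGy of radiation followed by bone marrow cells and splenocytes. Skin was taken from the nape at week 7, and 100 ng of its RNA was counted with the NanoString Myeloid Innate Immunity panel, in which color-coded probes are counted without amplification. Syngeneic (n = 3) and allo-WT (n = 3) recipients were C57BL/6J mice. Allo-MCd recipients (n = 5) were B6.Cg-KitW-sh/HNihrJaeBsmGlliJ mice, which carry a regulatory mutation of Kit, whose product binds stem cell factor, and are known to lack mast cells. The labels give LP/J donor cells for every mouse, whereas the methods give C57BL/6J donors for the syngeneic group. The Kit mutation lies in the recipient and not in the donor cells, it can act outside mast cells, and no mast cell-deficient group with syngeneic cells was included.

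CCL2, CCL7, CCL8 and CCL12 are small secreted proteins of the CC chemokine family that bind receptors on leukocytes and draw the cells toward their source. CCL2 and CCL7 act through CCR2, the receptor that lets inflammatory monocytes leave the bone marrow and enter inflamed tissue. Mouse CCL12 is a close relative of CCL2 and also binds CCR2, while mouse CCL8 is best known as a ligand of CCR8. In skin these chemokines are made by macrophages, fibroblasts, endothelium, keratinocytes and mast cells, and their genes respond to cytokines such as TNF, IL-1 and interferon-gamma.

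In the RefSeq annotation of GRCm38.p6 the 4 ligand genes lie on chromosome 11 in the order Ccl2, Ccl7, Ccl11, Ccl12, Ccl8, with Ccl1 next, and Ccr2 lies on chromosome 9. The promoter table of RefSeq, which covers the bases from 250 before to 50 after a gene's start, held Ccl12, Ccl8 and Ccr2. These 3 are shown because both ligand genes carry a TATA box and the receptor gene does not, and capitals mark the TATAAA. They lie on the plus strand at chr11:82101595-82101894 (Ccl12), chr11:82114935-82115234 (Ccl8) and chr9:124101933-124102232 (Ccr2).
Ccl12 promoter: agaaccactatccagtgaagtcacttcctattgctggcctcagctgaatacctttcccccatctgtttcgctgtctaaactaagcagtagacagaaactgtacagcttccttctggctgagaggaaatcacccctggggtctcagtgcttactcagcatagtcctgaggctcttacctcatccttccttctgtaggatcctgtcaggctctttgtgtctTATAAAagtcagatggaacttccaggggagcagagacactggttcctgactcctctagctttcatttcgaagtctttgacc
Ccl8 promoter: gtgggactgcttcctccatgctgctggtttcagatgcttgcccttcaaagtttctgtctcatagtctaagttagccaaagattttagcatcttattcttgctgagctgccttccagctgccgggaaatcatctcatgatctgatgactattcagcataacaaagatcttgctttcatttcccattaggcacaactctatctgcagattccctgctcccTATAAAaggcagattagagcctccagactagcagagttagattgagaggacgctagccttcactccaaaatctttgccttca
Ccr2 promoter: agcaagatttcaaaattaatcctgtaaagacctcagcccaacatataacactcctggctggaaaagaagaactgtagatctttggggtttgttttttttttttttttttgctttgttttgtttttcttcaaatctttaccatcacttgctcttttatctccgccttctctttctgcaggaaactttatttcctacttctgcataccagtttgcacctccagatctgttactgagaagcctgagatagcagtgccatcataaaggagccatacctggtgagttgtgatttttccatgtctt
The TATAAA began at position -31 in Ccl12 and at position -32 in Ccl8. Of 32851 promoters, 13.6% held TATAAA on either strand, and 1.75% held it on the gene's strand between positions -35 and -25. The letters TGANTCA (AP-1) and TTCNNNGAA (GAS) had no match on either strand of the 3 windows, against 7.81% and 8.3% of all promoters. These are matches of letters only and were not tied to the values below.

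The lanes differed in depth and scale. Whole counts recovered from the deposited values summed to between 831632 and 1460260 per mouse. The lowest total and the largest scaling factor (2.54, against 0.759 to 1.5 elsewhere) both belonged to allo-WT mouse 1. Its strongest positive control was counted 3975 times, against 17615 to 33547 in the other lanes, and it had the highest value of every member. Without this mouse the members differed by -3.65 to -2.40 on the log2 scale between allo-MCd and allo-WT skin, and the ligands rose by 2.04 to 3.26 from syngeneic to allo-WT skin, all called in limma. The deposited scale put the median gene lower in allo-MCd skin, with median log2 differences over all genes tested of -0.72 against allo-WT and -0.59 against syngeneic skin, while allo-WT minus syngeneic skin gave 0.21. After each mouse was scaled to the same median gene (median scaling), these medians were 0.12, -0.01 and -0.04. Both scales are therefore given for the members. Of the mast cell markers, 7 were on the panel. Their summed normalized count was 139 to 656 in allo-MCd mice, 2397 to 14803 in allo-WT mice and 3851 to 9348 in syngeneic mice, with none at 0 and with Kit and Ms4a2 not above background in any allo-MCd mouse. Only Cdh1 and Ccl27a of the skin epithelium list were on the panel, and both were measured in every group.

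All 4 ligand transcripts were higher in allo-WT skin than in syngeneic skin by 5.18- to 10.9-fold, and in allo-MCd skin their means on the log2 scale were at most 1.76-fold below the syngeneic level. For Ccr2 the 1.69-fold higher level in allo-WT skin did not pass the test in limma, and the level was 3.44-fold lower in allo-MCd skin than in syngeneic skin, calls that both turned under the methods' test after adjustment. Every member was lower in allo-MCd skin than in allo-WT skin, by 5.82-fold for Ccr2 and by 9.12- to 13.5-fold for the ligands (3.24-fold and 5.08- to 7.52-fold under median scaling).

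Ccl2, the best studied monocyte attractant of the family, was measured at normalized counts of 690, 752 and 1325 in the syngeneic mice. In the allo-WT mice the counts were 12597, 7759 and 9205. In the allo-MCd mice they were 550, 965, 427, 857 and 961. The lowest allo-WT mouse was far above every other mouse, while the syngeneic and allo-MCd values overlapped. In limma, on log2(value + 1) with Benjamini-Hochberg adjustment over the 696 genes tested, Ccl2 rose by 3.45 ± 0.35 (log2 difference ± SE) from syngeneic to allo-WT skin (adjusted p = 5.69e-05). From allo-WT to allo-MCd skin it fell by 3.75 ± 0.32 (adjusted p = 1.92e-06).

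Ccl7, the neighbouring ligand, was measured at 325, 425 and 544 in syngeneic mice. It was measured at 5618, 3571 and 3852 in allo-WT mice. In allo-MCd mice it was measured at 308, 529, 194, 404 and 471. The mice stood in nearly the same order as for Ccl2, with allo-WT mouse 1 highest and allo-MCd mouse 3 lowest. Ccl7 rose by 3.33 ± 0.35 from syngeneic to allo-WT skin (adjusted p = 5.69e-05) and differed by -3.56 ± 0.32 between allo-MCd and allo-WT skin (adjusted p = 2.43e-06, limma).

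Ccl12, the CCL2-like ligand found in mouse, was measured at 564, 483 and 613 in syngeneic mice. The allo-WT values were 4495, 1630 and 3172, the widest relative spread among the 5 members in that group. The allo-MCd values were 256, 468, 227, 302 and 360, all below the lowest syngeneic mouse. Ccl12 had the smallest rise of the 4 ligands, 2.37 ± 0.35 from syngeneic to allo-WT skin (adjusted p = 0.000399), and differed by -3.19 ± 0.32 between allo-MCd and allo-WT skin (adjusted p = 5.65e-06, limma).

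Ccl8, the ligand of CCR8, was measured at 11705, 9147 and 10522 in syngeneic mice. In allo-WT mice it was measured at 111342, 75024 and 109106. In allo-MCd mice it was measured at 5114, 8267, 7708, 7347 and 8138. It took 4.39% to 5.85% of all gene counts in an allo-WT lane, against 0.675% to 0.728% in syngeneic and 0.596% to 0.876% in allo-MCd lanes. Ccl8 rose by 3.22 ± 0.26 from syngeneic to allo-WT skin (adjusted p = 9.60e-06) and differed by -3.75 ± 0.23 between allo-MCd and allo-WT skin (adjusted p = 5.22e-07, limma).

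Ccr2, the receptor, was measured at 3129, 3263 and 3971 in syngeneic mice. The allo-WT values were 7048, 4348 and 6415, so that all 3 lay above the syngeneic mice but the lowest by little. The allo-MCd values were 513, 1396, 1176, 877 and 1338, all below the lowest syngeneic mouse. Ccr2 differed by -2.54 ± 0.31 between allo-MCd and allo-WT skin (adjusted p = 2.57e-05) and by -1.78 ± 0.31 between allo-MCd and syngeneic skin (adjusted p = 0.00161, limma). The difference between allo-WT and syngeneic skin, 0.76 ± 0.34 with a 95% interval of 0.01 to 1.51, did not pass the test (adjusted p = 0.0871). Its adjusted p was 0.0276 when allo-MCd mouse 1 was left out, which changes only the spread in this comparison, and 0.0463 when only the groups compared were fitted. After Benjamini-Hochberg adjustment of the methods' test this difference passed (adjusted p = 0.0429) and that between allo-MCd and syngeneic skin did not (adjusted p = 0.0565).

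**Figure D1:**
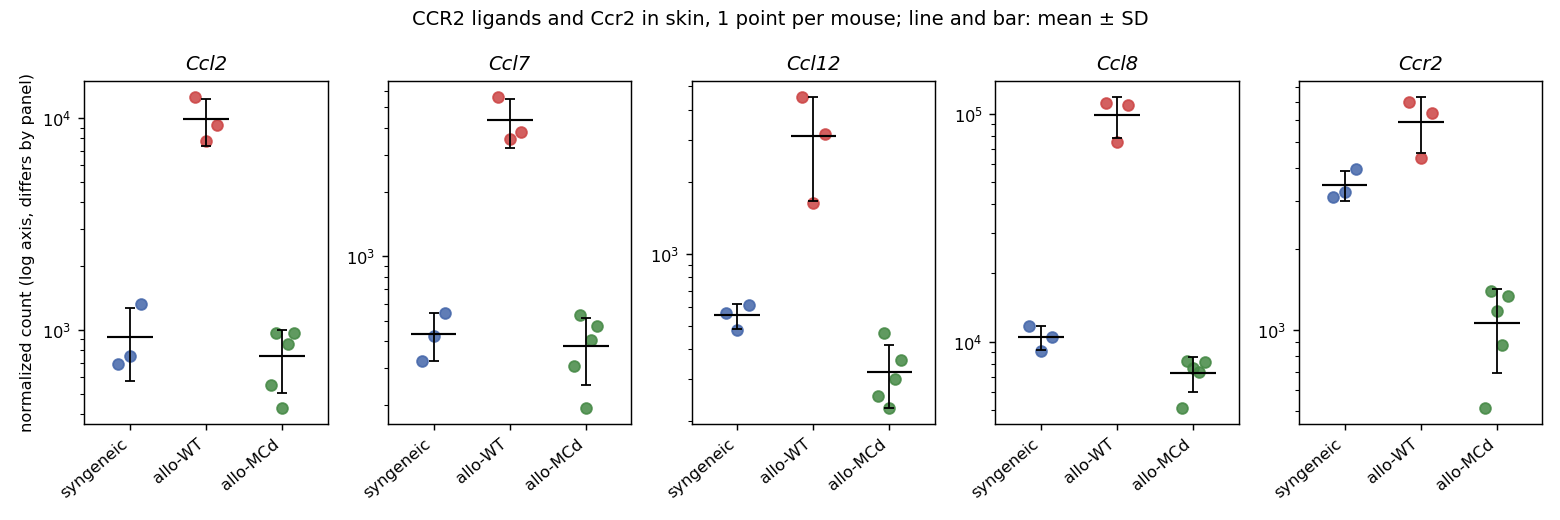
Normalized counts of Ccl2, Ccl7, Ccl12, Ccl8 and Ccr2 (log axes, which differ by panel) in 3 syngeneic, 3 allo-WT and 5 allo-MCd mice, with 1 point per mouse and the mean ± SD. For the 4 ligands the allo-WT mice stood above all other mice, whereas for Ccr2 the allo-WT and syngeneic mice lay close together and the allo-MCd mice lowest.

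Of the 5 members, 5 were called lower in allo-MCd skin than in allo-WT skin, where 348 of the 696 genes tested (50%) were called lower and 10.9% higher. Between allo-WT and syngeneic skin 4 members were called higher and none lower, against 28.3% and 14.9% of all genes. Between allo-MCd and syngeneic skin 1 member was called lower and none higher, against 36.9% and 4.60% of all genes. The median difference of the members was -3.56, 3.22 and -0.53 in these comparisons.

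Under median scaling the same numbers of members were called. The differences between allo-MCd and allo-WT skin were then -2.91 for Ccl2, -2.72 for Ccl7, -2.35 for Ccl12, -2.90 for Ccl8 and -1.70 for Ccr2, and 30.3% of all genes were called lower and 35.6% higher. From syngeneic to allo-WT skin the 4 ligands rose by between 2.12 and 3.20, and 24.3% of all genes were called higher and 27.3% lower. Between allo-MCd and syngeneic skin Ccr2 was called lower at -1.19 ± 0.24 (adjusted p = 0.00489), and 13.5% of all genes were called lower and 13.9% higher. With the 3 allo-WT mice against the 5 allo-MCd mice the two-sided exact permutation p, taken as 2 times the smaller tail, was 0.0357 for each member, the smallest that this form of the test gives. For 3 mice against 3 its smallest is 0.1. The share of all genes tested whose groups separate in this way is not given here. The separation, in any comparison, cannot be read as particular to the members.

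The ligands in allo-MCd skin did not differ from syngeneic skin past the threshold in limma. On the deposited scale all 5 allo-MCd values of Ccl8 and of Ccl12 lay below the lowest syngeneic mouse, each with an exact permutation p of 0.0357, while under median scaling the groups overlapped for each ligand. For Ccl2 the difference was -0.30, with a 95% interval of -0.99 to 0.39 (adjusted p = 0.447), and for Ccl7 it was -0.23, with an interval of -0.92 to 0.46 (adjusted p = 0.570). For Ccl8 it was -0.53, with an interval of -1.03 to -0.03 (adjusted p = 0.0782). For Ccl12 it was -0.82, with an interval of -1.51 to -0.13 (adjusted p = 0.0555). The Ccl12 difference passed when only these groups were fitted (adjusted p = 0.0209), or without allo-WT mouse 1 (0.0360), allo-WT mouse 2 (0.0221) or allo-MCd mouse 2 (0.0364). Under median scaling the direction turned for Ccl2 (0.29), Ccl7 (0.36) and Ccl8 (0.06), while Ccl12 kept its direction at -0.23. The intervals do not show that the groups are alike.

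**Figure D2:**
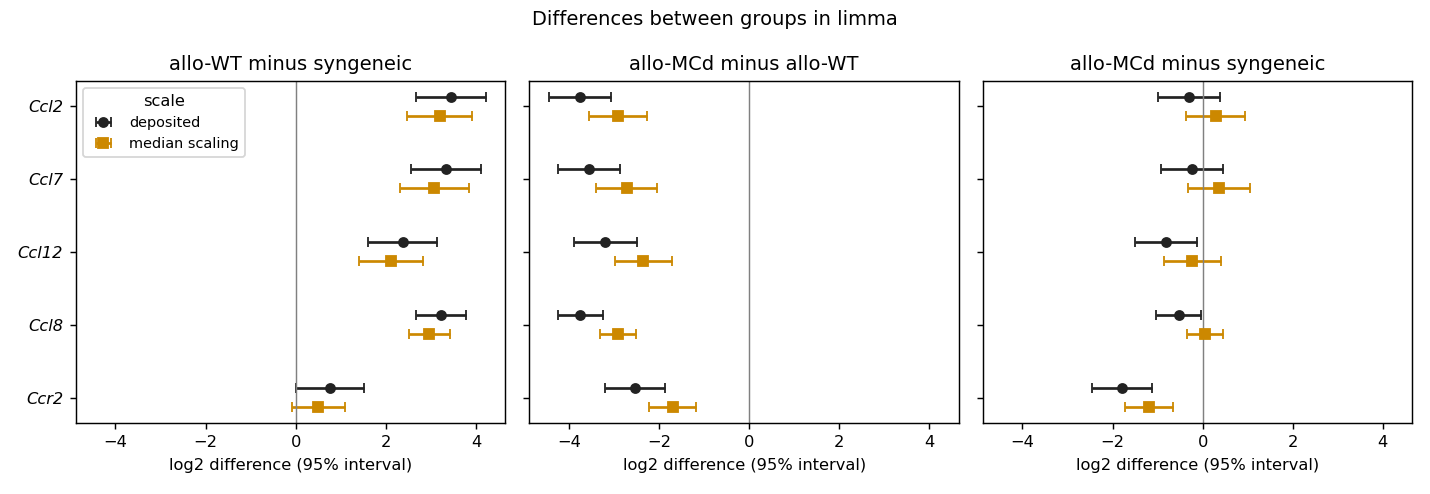
Log2 differences of the 5 members with 95% intervals from limma, on the deposited scale (black circles) and after median scaling (orange squares), in 3 panels for the 3 comparisons. The 4 ligands lie between 2.12 and 3.45 in allo-WT minus syngeneic skin and on both sides of 0 in allo-MCd minus syngeneic skin, while Ccr2 lies below 0 in both comparisons with allo-MCd skin on both scales.

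Ratios of members within a mouse do not depend on the scaling factor of that mouse. The log2 ratio of Ccl7 to Ccl2 was -1.06 ± 0.23 (mean ± SD) in syngeneic mice, -1.18 ± 0.07 in allo-WT mice and -0.99 ± 0.13 in allo-MCd mice. The groups overlapped in each comparison, and the SD of this ratio over all 11 mice was 0.16. The log2 ratio of Ccl12 to Ccl2 was -0.68 ± 0.41 in syngeneic mice, -1.76 ± 0.43 in allo-WT mice and -1.19 ± 0.25 in allo-MCd mice. Every allo-WT mouse had less Ccl12 for its Ccl2 than every syngeneic mouse, while the allo-MCd mice overlapped with both groups. The log2 ratio of Ccl8 to Ccl2 was 3.56 ± 0.55, 3.33 ± 0.22 and 3.33 ± 0.47 in the same order, with overlap throughout.

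In the balance of receptor and ligand the groups stood apart. The log2 ratio of Ccr2 to Ccl2 was 1.96 ± 0.33 in syngeneic mice, -0.73 ± 0.18 in allo-WT mice and 0.48 ± 0.61 in allo-MCd mice, and no group overlapped with another. The difference was 1.21 between allo-MCd and allo-WT mice and -1.48 between allo-MCd and syngeneic mice, each with an exact permutation p of 0.0357 and 0.107 after adjustment over 18 ratio tests. None of the 18 tests passed after adjustment, also when p was taken from the absolute difference (smallest adjusted p 0.0804).

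Csf1r, the receptor for macrophage colony-stimulating factor and a marker of monocytes and macrophages, served as a second reference. The log2 ratio of Ccr2 to Csf1r was 0.13 ± 0.45 in syngeneic mice, 0.36 ± 0.13 in allo-WT mice and -0.09 ± 0.40 in allo-MCd mice, with overlap in each comparison. The ratio of Ccl8 to Csf1r was 1.73 ± 0.22, 4.42 ± 0.09 and 2.76 ± 0.34, with no overlap between any groups. The ratio of Ccl2 to Csf1r was -1.83 ± 0.65, 1.09 ± 0.30 and -0.57 ± 0.65, and only the syngeneic and allo-MCd mice overlapped. Ccl7 followed the same order at -2.90 ± 0.65, -0.09 ± 0.36 and -1.56 ± 0.73, as did Ccl12 at -2.51 ± 0.29, -0.67 ± 0.46 and -1.76 ± 0.58. For the 4 ligands the allo-MCd mean ratio thus lay between those of the syngeneic and allo-WT mice. Csf1r itself differed by -1.57 ± 0.28 between allo-MCd and syngeneic skin (adjusted p = 0.0017, limma), and by -0.97 under median scaling. The ratios therefore do not place the ligand levels between the other groups. On the deposited scale all 4 ligand differences between allo-MCd and syngeneic skin were below 0, and none was called on either scale. In whole skin, fewer cells of a type and less RNA per cell cannot be told apart.

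**Figure D3:**
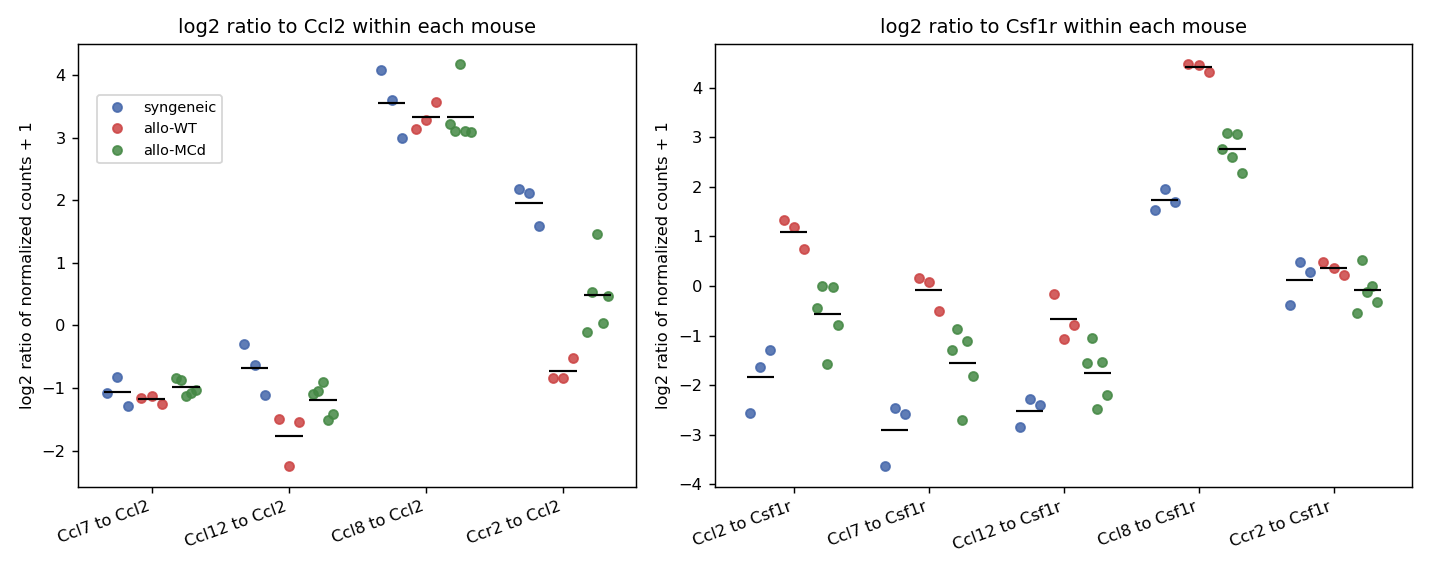
Log2 ratios of normalized counts + 1 within each mouse, to Ccl2 (left) and to Csf1r (right), with 1 point per mouse, a line at the group mean and colors for syngeneic, allo-WT and allo-MCd mice. Ccl7 to Ccl2 and Ccr2 to Csf1r overlapped between groups, whereas Ccr2 to Ccl2 and Ccl8 to Csf1r separated all 3 groups.

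Likeness between genes was measured as the SD over the 11 mice of the log2 ratio of both genes, a description without a test in which all genes share the same lanes. The 3 groups were pooled, so genes with like differences between groups come out near each other. Likeness within a group was not measured. For Ccl2 the nearest of the other 695 genes tested were Ccl7 (0.16), Tlr13 (0.39), a receptor for bacterial ribosomal RNA, and Ccl8 (0.41), against a median of 1.63 over all genes. Ccl7 was nearest to Ccl2 (0.16), Tlr13 (0.41) and Ccl8 (0.45). Ccl12 was nearest to Csf3r (0.33), the receptor for granulocyte colony-stimulating factor, Adam8 (0.40) and C3ar1 (0.41), a complement receptor. Ccl8 was nearest to Csf3r (0.28), Gzma (0.35), a granzyme of cytotoxic lymphocytes, and Ccl2 (0.41). Ccr2 was nearest to Ptafr (0.28), the receptor for platelet-activating factor, Tyrobp (0.28), an adaptor of myeloid receptors, and Ptprc (0.30), the leukocyte antigen CD45. Seen from Ccl2, Ccr2 came at place 127, with an SD of 1.13.

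Among the other CC chemokine ligands 17 were on the panel and 15 were tested, with Ccl26 and Ccl28 below the filter on low values. Between allo-MCd and allo-WT skin 10 were called lower and 1 higher, and between allo-WT and syngeneic skin 7 were called higher and 2 lower. Between allo-MCd and syngeneic skin 8 were called lower and none higher. Under median scaling the counts were 9 and 2, 7 and 3, and 5 and 1, beside the shares of all genes given for the members. Their median differences, -1.96, 0.70 and -1.20, compare with -0.72, 0.21 and -0.59 over all genes. Under median scaling they were -1.11, 0.45 and -0.61, against 0.12, -0.04 and -0.01 over all genes.

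Ccl3 and Ccl4, the macrophage inflammatory proteins, were, like the CCR2 ligands, highest in allo-WT skin and not called between allo-MCd and syngeneic skin. Ccl3 rose from 35.2 ± 5.18 (mean ± SD) in syngeneic to 727 ± 450 in allo-WT skin and was 35.2 ± 24.5 in allo-MCd skin, and Ccl4 was measured at 15.7 ± 3.42, 204 ± 97.1 and 12.4 ± 5.84. Outside the allo-WT group both lay near the background, which was at 14.3 to 37.5. Ccl5 rose by 4.68 ± 0.63 from syngeneic to allo-WT skin and differed by -3.75 ± 0.56 between allo-MCd and allo-WT skin. Ccl6 and Ccl9, ligands of CCR1, were called in all 3 comparisons. Ccl6 was measured at 1510 ± 51.3 in syngeneic skin, 7119 ± 3452 in allo-WT skin and 455 ± 77.6 in allo-MCd skin, and its difference between allo-MCd and syngeneic skin was -1.74 (-1.15 under median scaling, called on both scales). Ccl27a, a keratinocyte chemokine, was the ligand called higher in allo-MCd skin than in allo-WT skin (2.41 ± 0.91), from overlapping groups, and Ccl25 joined it under median scaling (1.32). On the deposited scale 0 ligands were called higher there without allo-WT mouse 1 or 2 or allo-MCd mouse 1, 3 or 5, and 0 by the methods' test.

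The cluster on chromosome 11 also holds Ccl11 and Ccl1. Ccl11, the eosinophil attractant eotaxin, which lies between Ccl7 and Ccl12, stood at 2653 ± 363 in syngeneic skin, 4856 ± 3084 in allo-WT skin and 1187 ± 561 in allo-MCd skin. Its rise of 0.70 ± 0.43 from syngeneic to allo-WT skin did not pass the test (adjusted p = 0.187, limma), and its difference between allo-MCd and allo-WT skin was -1.96 ± 0.38. Between allo-MCd and syngeneic skin Ccl11 differed by -1.26 ± 0.38 and was called on the deposited scale (adjusted p = 0.0210, limma), but not under median scaling (-0.67, adjusted p = 0.1495). Ccl1, a ligand of CCR8 beside Ccl8, rose by 2.11 ± 0.50 and differed by -2.07 ± 0.45 between allo-MCd and allo-WT skin. Whether these differences are unlike those of the CCR2 ligands was not tested.

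Of the receptors and scavengers for these ligands, 5 of 8 listed genes were on the panel. All 5 were called lower in allo-MCd skin than in allo-WT skin, and 3 under median scaling, against 50% and 30.3% of all genes. Ccr1, which binds several CC ligands, rose by 2.37 ± 0.33 from syngeneic to allo-WT skin, and Ccr3, the eotaxin receptor, rose by 3.23 ± 0.71. Ccr1 was also called lower in allo-MCd skin than in syngeneic skin, on both scales. Ccr8, the receptor for CCL8 and CCL1, was measured at 38.7 ± 9.47 in syngeneic skin, 59.1 ± 11.1 in allo-WT skin and 22.5 ± 6.86 in allo-MCd skin. Ccr8 lay near the background of the syngeneic lanes (17.5 to 36.7) and of the allo-MCd lanes (14.3 to 24.9). Its rise did not pass the test, and its difference of -1.39 between allo-MCd and allo-WT skin passed on the deposited scale only.

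**Figure D4:**
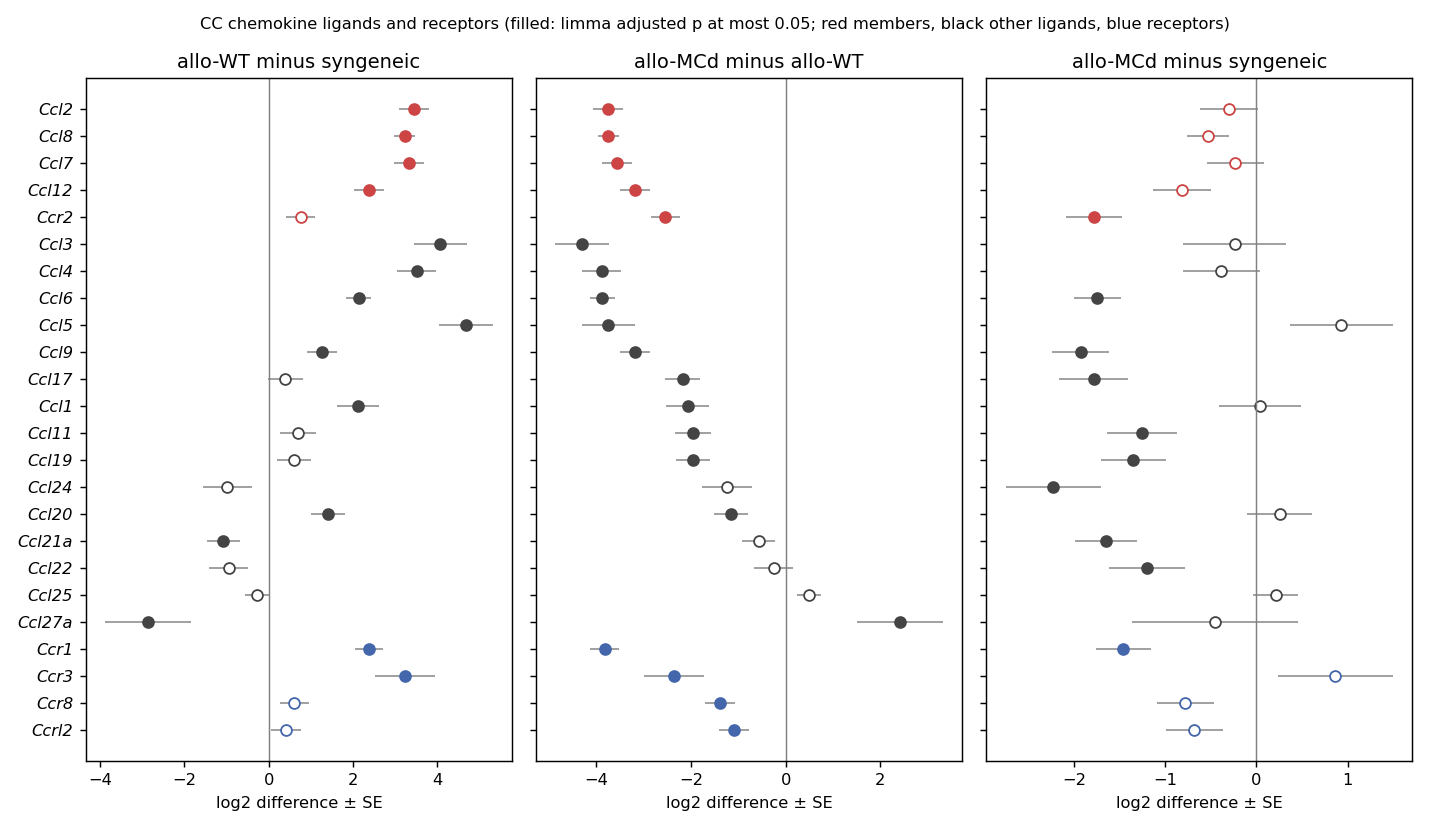
Log2 differences ± SE on the deposited scale for the 5 members (red), 15 other CC ligands (black) and 4 of the receptors (blue) in 3 comparisons, with filled points for genes called in limma (threshold 0.05). Ccl2, Ccl7, Ccl12 and Ccl8 lie far to the right in allo-WT minus syngeneic skin. In allo-MCd minus syngeneic skin they have open points between -0.82 (Ccl12) and -0.23 (Ccl7), and Ccr2, Ccl6 and Ccl9 have filled points further to the left.

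Markers of monocytes and macrophages, the cells that carry CCR2 and also make its ligands, were also called in all comparisons. Of 13 markers on the panel, 12 were called lower and none higher in allo-MCd skin than in allo-WT skin (50% of all genes lower). From syngeneic to allo-WT skin 7 were called higher and 1 lower (28.3% and 14.9% of all genes). In allo-MCd skin 10 were called lower and none higher than in syngeneic skin (36.9% of all genes lower). Under median scaling 10, 1 and 5 were called lower in these comparisons (30.3%, 27.3% and 13.5% of all genes) and 1, 7 and 1 higher (35.6%, 24.3% and 13.9%). Their summed count was 26001 to 36550 in syngeneic mice, 55813 to 84318 in allo-WT mice and 10051 to 17706 in allo-MCd mice, with none at 0. Ly6c1 had the highest mean of the 13 in each group (11350, 30840 and 4764 in the same order) and so weighs most in this sum.

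Fcgr1, the high-affinity IgG receptor of macrophages, rose by 1.92 ± 0.36 from syngeneic to allo-WT skin and differed by -3.09 ± 0.32 between allo-MCd and allo-WT skin. Mrc1, the mannose receptor of resident macrophages, had differences of 1.39 ± 0.28 and -2.79 ± 0.25 in these comparisons. Ly6c1, a near-identical relative of the monocyte gene Ly6c2, rose by 1.38 ± 0.31, and the panel may not tell these apart. Nr4a1, which is needed by patrolling monocytes, went against the list, and fell by 1.99 ± 0.46 from syngeneic to allo-WT skin.

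Markers of other cell types follow. All 7 mast cell markers were called lower in allo-MCd skin than in allo-WT skin and than in syngeneic skin (6 of 7 in each under median scaling), against 50% and 36.9% of all genes (30.3% and 13.5%). Kit, 1 of these, is the mutated gene itself. Its values overlapped between allo-MCd and allo-WT skin, and it was not called there under median scaling. Fcer1a was called higher in allo-WT (814 ± 814) than in syngeneic skin (105 ± 21.7), from overlapping groups. Within the allo-WT group the mast cell sum was lowest in mouse 2 (2397, against 14803 in mouse 1 and 8080 in mouse 3). Of the neutrophil markers, 5 of 7 were tested, and 5 were called lower in allo-MCd skin than in allo-WT skin on the deposited scale and 4 under median scaling (50% and 30.3% of all genes). Their sum in the allo-WT mice was 133582, 29392 and 3930, against 514 to 741 in syngeneic and 555 to 1167 in allo-MCd mice. The fibroblast sum was 12951 in allo-WT mouse 2, against 135370 and 101559 in the other allo-WT mice, 89814 to 189770 in syngeneic and 36983 to 86742 in allo-MCd mice. Of 5 fibroblast markers, 1 was called lower in allo-MCd minus allo-WT, 1 in allo-WT minus syngeneic and 3 in allo-MCd minus syngeneic skin (50%, 14.9% and 36.9% of all genes), and 0, 3 and 0 under median scaling (30.3%, 27.3% and 13.5%). Of 4 endothelial markers, 3 fell from syngeneic to allo-WT skin on both scales (14.9% and 27.3% of all genes). Between allo-MCd and allo-WT skin 0 of them were called on the deposited scale and 3 were called higher under median scaling, where 35.6% of all genes were. In allo-MCd minus syngeneic skin 2 were called lower, and 1 under median scaling (36.9% and 13.5% of all genes). Of the skin epithelium list, Ccl27a was called lower in allo-WT minus syngeneic skin on both scales (-2.87 and -3.12), from overlapping groups. On the deposited scale this call was lost with only these groups fitted and with mouse number as a block. Cdh1 was called higher under median scaling in allo-MCd skin than in each other group. Of the T cell list only Cd28 was on the panel, at 58.4 to 92.6 in syngeneic mice, 162 to 200.3 in allo-WT mice and 28.8 to 39.9 in allo-MCd mice. The part of monocytes and macrophages, mast cells, neutrophils, fibroblasts, endothelium, epithelium and T cells in the differences of the members was not tested.

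The listed inducers of Ccl2 and their signalling genes, of which 16 of 22 were on the panel, gave 14 calls of a lower and 1 of a higher level in the mast cell-deficient recipients than in allo-WT skin, and 8 and 1 under median scaling (50% and 30.3% of all genes lower). From syngeneic to allo-WT skin 6 were called higher on either scale (28.3% and 24.3% of all genes), and none lower on the deposited scale and 2 under median scaling. In allo-MCd minus syngeneic skin 5 were called lower and none higher, and 2 and 1 under median scaling (36.9% and 13.5% of all genes lower). Il1a rose by 2.66 ± 0.47 and Il6 by 2.67 ± 0.55, and their differences between allo-MCd and allo-WT skin were -3.14 ± 0.42 and -3.08 ± 0.49 (-2.30 and -2.25 under median scaling). Ifng was measured at 14.6 ± 7.20 in syngeneic skin, 110 ± 56.6 in allo-WT skin and 13.7 ± 2.12 in allo-MCd skin, where no mouse was above background, and the syngeneic mean was below the background of its lanes (17.5 to 36.7). Irf1, a transcription factor induced by interferons, rose by 2.58 ± 0.39. Tnf was called lower in allo-MCd skin than in allo-WT skin (-1.85 ± 0.40, and -1.02 under median scaling), and its difference of 1.04 ± 0.44 between allo-WT and syngeneic skin did not pass the test (adjusted p = 0.0723, limma). Jun, a subunit of AP-1, was the gene called higher in allo-MCd skin than in allo-WT skin (0.78 ± 0.25, and 1.62 under median scaling). On the deposited scale the count of inducers called higher was kept in 10 of 11 fits without 1 mouse. This call was lost by the methods' test and with mouse number as a block.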

How the data were processed

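Each of the 11 mice had 1 NanoString lane. What was deposited is a linear signal: the authors normalized the counts in nSolver. The version, the genes used as reference and how background was treated are not given in the sources used here. In each mouse 99.87% to 100% of the gene values lay within 0.011 of whole multiples of 1 factor, which gave the recovered counts and the depth. No column was left unmapped (0). Of the 754 genes, 20 housekeeping genes, chosen from general knowledge, were set aside, and tests covered the 696 that reached 20 in 3 or more mice. Groups were compared in limma 3.58.1 (R 4.3.3) with an intensity trend on log2(value + 1), all 3 groups in 1 fit, and calls were made at 0.05 after Benjamini-Hochberg adjustment. A fold is 2 raised to this log2 difference and understates changes of low genes. Ratios within a mouse were compared with two-sided exact permutation tests in scipy 1.17.1 (Python 3.11.15), and matplotlib 3.10.9 drew the plots. The 8 negative controls gave the background as mean plus 2 SD, and the fit was tested on simulated data.

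The members, lists and tests were chosen with earlier results of these data known. Genes are named as members, as genes of a list, or as the 3 nearest to a member. The values of 3 listed genes are not reported here, though the counts over their lists include them. The study pooled separate transplants for other measurements. Which transplant each of these mice came from is not given in the sources used here, so it could not be used as a batch, and p-values measure the spread between these mice. Alternatives were other pseudocounts, filters, scalings and limma settings, Tukey's comparison from the methods, the mouse number as a block, leaving out each mouse, and, added after the data were seen, voom on recovered counts and an exact p from the absolute difference. Probe sequences are not given in the sources used here, and cross-hybridization between related ligands was not tested.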

Additional observations from a re-analysis of the deposited data

Results flagged for a closer look

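Among 14 sets of 5 allo-MCd values examined (the members and their ratios), 2 held a mouse far from the others by Dixon's criterion, which chance alone gives in about 1 of 20 sets. The log2 normalized count of Ccl8 in allo-MCd mouse 1 was 12.32, and its gap to the next mouse was 0.754 of the range of the group. The log2 ratio of Ccl8 to Ccl2 in allo-MCd mouse 3 was 4.17, with a gap of 0.877 of the range. Mouse 3 had the lowest Ccl2, and without it the difference in this ratio between allo-MCd and allo-WT mice was -0.21 instead of 0.0048.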

How the results depend on the processing

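Of 75 results of single settings for the members in each comparison (15 settings other than leaving out a mouse, for 5 genes), 75 kept their direction and call between allo-MCd and allo-WT skin, 72 between allo-WT and syngeneic skin and 68 between allo-MCd and syngeneic skin. The exceptions follow, and their cause was not tested. With only the groups compared in the fit, Ccr2 passed between allo-WT and syngeneic skin (0.76, adjusted p = 0.0463) and Ccl12 between allo-MCd and syngeneic skin (-0.82, adjusted p = 0.0209). By the methods' test Ccr2 passed in the first of these (0.78, with and without Benjamini-Hochberg adjustment), and after that adjustment it no longer passed in the second (-1.70). Between allo-MCd and syngeneic skin Ccl2, Ccl7 and Ccl8 turned to 0.29, 0.36 and 0.062 under median scaling, and Ccl2 and Ccl7 to 0.14 and 0.35 under quantile normalization. With a pseudocount of 20, the ratio of Ccl8 to Ccl2 in allo-MCd minus allo-WT mice turned to -0.029. The absolute-difference p changed no call of a ratio, with a smallest adjusted value of 0.0804.

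Counts of called genes in the lists moved with scaling and with the methods' test. Median scaling and quantile normalization gave, between allo-MCd and allo-WT skin, 2 and 2 other CC ligands higher, 3 and 2 receptors lower, 1 and 1 monocyte and macrophage genes higher, and 8 and 7 inducers lower. Between allo-MCd and syngeneic skin they gave 5 and 5 ligands lower, 1 and 1 higher, 1 and 0 receptors lower, 1 and 1 monocyte and macrophage genes higher, 2 and 2 inducers lower, and 1 and 1 higher, with 5 monocyte and macrophage genes lower under median scaling. Between allo-WT and syngeneic skin they gave 2 and 2 inducers lower, and quantile normalization gave 4 ligands lower. With only the groups compared, 0 ligands were lower in allo-WT skin than in syngeneic skin, and 1 monocyte and macrophage gene was higher in allo-MCd skin. By the methods' test, before and after adjustment, 0 and 0 ligands and 0 and 0 inducers were higher in allo-MCd skin than in allo-WT skin, and 1 and 0 ligands were lower in allo-WT skin than in syngeneic skin. Against syngeneic skin it gave, in allo-MCd skin, 4 and 1 ligands, 0 and 0 receptors and 3 and 1 monocyte and macrophage genes lower, with 1 inducer lower after adjustment. After adjustment 0 monocyte and macrophage genes were lower in allo-WT skin than in syngeneic skin.

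Whether the mouse numbers pair mice across groups is not settled by these few mice. Correlations of same-numbered mice lay between -0.117 and 0.211, and those of other mice between -0.220 and 0.294. Between syngeneic and allo-WT mice the same-numbered pairs (0.149, 0.211 and 0.058) lay above all others (at most 0.025). Same-numbered pairs with an allo-MCd mouse lay within the range of the others. Under a replicate block by mouse number, Ccl2 stood at -3.98 between allo-MCd and allo-WT skin and Ccr2 at -1.86 between allo-MCd and syngeneic skin. No member changed its call, and 0 other ligands and 0 inducers were higher in allo-MCd skin than in allo-WT skin, and 0 ligands lower in allo-WT skin than in syngeneic skin.

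Without 1 mouse at a time, Ccr2 lay between 0.62 and 0.97 for allo-WT minus syngeneic skin and Ccl12 between -0.96 and -0.70 for allo-MCd minus syngeneic skin. The ratio of Ccl8 to Ccl2 lay between -0.21 and 0.12 for allo-MCd minus allo-WT mice and between -0.51 and 0.037 for allo-MCd minus syngeneic mice, and that of Ccl7 to Ccl2 between -0.0355 and 0.20 for the latter. Other ligands called higher in allo-MCd skin than in allo-WT skin numbered 0 to 1, those lower in allo-WT skin than in syngeneic skin 0 to 3, and those lower in allo-MCd skin than in syngeneic skin 5 to 8. Receptors lower in that comparison numbered 1 to 4 and inducers 2 to 8. Between allo-MCd and allo-WT skin 0 to 1 monocyte and macrophage genes and 0 to 1 inducers were higher, and 0 to 1 inducers were lower in allo-WT skin than in syngeneic skin.

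Depth does not limit the members, which had between 188 and 85409 recovered counts in a lane, but the number of mice (3, 3 and 5) is small. Median scaling moved the median gene between allo-MCd and syngeneic skin from -0.59 to -0.01, which is more than the differences of Ccl2, Ccl7 and Ccl8 there. The planned edgeR test on recovered counts was not run, and voom on the same counts was run in its place. Syngeneic recipients were wild-type only, so the recipient's genotype and the transplant type cannot be told apart in allo-MCd minus syngeneic skin.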
